A study of Mus musculus with 6 samples.

Results

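The 10 genes described here encode the core of the inflammasome pathway and the interleukin 1 (IL-1) cytokines around it: the sensors Nlrp3 and Aim2, the adaptor Pycard, the caspases Casp1 and Casp4, the pore-forming protein Gsdmd, and the cytokines Il1a, Il1b, Il1rn and Il18. They were taken by name from a table of 54532 gene identifiers, and all 10 were found and had enough counts to be tested. Cultured mouse macrophages, which the series title places in the peritoneum and the labels call PMAs, gave 6 libraries, 3 of them negative controls and 3 labelled as Rfx1 overexpression. Rfx1 encodes a DNA-binding protein of the RFX family. All 6 cultures were kept in DMEM with fetal bovine serum and antibiotics. The labels give no strain, genotype, age, sex, stimulus, harvest time or means of overexpression, and do not say what the negative control received or whether libraries with the same label stem from separate animals, so a p-value speaks only for the variation among these 6 libraries. The study set the labels against each other to find the transcripts that respond to Rfx1.

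Inflammasomes are protein platforms that form in the cytosol of myeloid cells. A sensor recruits the adaptor ASC, the product of Pycard, which gathers pro-caspase 1. Active caspase 1 cuts the inactive precursors of IL-1 beta and IL-18, and it also cuts gasdermin D, whose free end opens pores in the plasma membrane. In resting macrophages the Il1b transcript is kept low and is induced by inflammatory signals, a step known as priming, whereas the IL-18 precursor is made without such a signal. Transcript counts report the priming side of this pathway and not cleavage or release.

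Shown here, to be compared base by base, are promoters of the members whose rise held in at least 15 of 16 other settings of the analysis (Il1b, Il1a and Casp4). That of the IL-1 receptor antagonist is added. Nlrp3 and Casp1, which also rose, are not shown. Of the 10 members, 9 had a promoter window in the RefSeq-based table (build GRCm38.p6, the same assembly as mm10), 13 windows in all, and each window runs from 250 bases before to 50 bases after an annotated start site. Capitals mark matches, on either strand, to any of 7 motifs: the kB motif of NF-kB proteins, the X-box of RFX proteins, ISRE (GAAANNGAAA), GAS (TTCNNNGAA), AP-1 (TGANTCA), PU.1 (GAGGAA) and CEBP (TTGCNNAA).
Il1b, chr2:129371090-129371389, - strand: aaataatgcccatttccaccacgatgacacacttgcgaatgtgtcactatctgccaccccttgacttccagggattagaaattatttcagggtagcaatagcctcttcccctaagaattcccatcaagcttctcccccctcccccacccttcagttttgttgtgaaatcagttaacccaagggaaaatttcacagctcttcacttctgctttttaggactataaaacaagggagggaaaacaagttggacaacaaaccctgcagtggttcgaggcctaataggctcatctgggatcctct
Il1a, chr2:129309923-129310222, - strand: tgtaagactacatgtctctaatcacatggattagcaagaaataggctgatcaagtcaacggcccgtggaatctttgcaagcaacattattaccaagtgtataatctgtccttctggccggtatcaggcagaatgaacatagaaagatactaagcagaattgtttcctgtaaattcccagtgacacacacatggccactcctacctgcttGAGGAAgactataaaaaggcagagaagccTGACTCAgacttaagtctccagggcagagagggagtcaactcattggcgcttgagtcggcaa
Il1rn, chr2:24336610-24336909, + strand: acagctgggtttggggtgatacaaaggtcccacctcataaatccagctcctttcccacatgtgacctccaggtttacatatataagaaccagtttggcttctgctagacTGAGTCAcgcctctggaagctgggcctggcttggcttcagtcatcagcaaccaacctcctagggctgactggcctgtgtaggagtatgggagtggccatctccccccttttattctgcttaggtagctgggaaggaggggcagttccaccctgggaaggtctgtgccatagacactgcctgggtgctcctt
Casp4, chr9:5308599-5308898, + strand: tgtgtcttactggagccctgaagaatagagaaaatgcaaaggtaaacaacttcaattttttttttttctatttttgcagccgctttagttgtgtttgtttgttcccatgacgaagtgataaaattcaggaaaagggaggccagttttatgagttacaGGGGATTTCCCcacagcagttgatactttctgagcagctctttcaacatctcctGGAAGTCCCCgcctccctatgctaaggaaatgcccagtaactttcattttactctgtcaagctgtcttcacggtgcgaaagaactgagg

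The Casp4 window held 3 kB matches, 2 of them overlapping at -93 to -83 and 1 at -39 to -30, and 8.46% of all 32841 windows of 300 bases held at least 1. The Il1a window held an AP-1 match at -12 to -6 and a PU.1 match at -41 to -36, and the Il1rn window an AP-1 match at -141 to -135. Of all windows, 7.81% held an AP-1 match and 28.3% a PU.1 match. Members not shown held matches too: Nlrp3 a kB match at -186 to -177 of 1 window and PU.1 matches in another. PU.1 was also matched in the windows of Casp1, which rose, and of Aim2 and Pycard, which did not pass. The Pycard window also held a CEBP match at -142 to -135, and 10.8% of all windows held at least 1. None of the 7 motifs was matched in the Il1b window. The other start site of Casp4 lies a few bases downstream and its window holds the same matches, and the other pair of Il1rn windows held none. An X-box match was found in none of the 13 member windows, against 1.53% of all windows. At that share so few windows, some of them overlapping, would rarely hold a match, so its absence does not set the members apart. These are letters in a window and say nothing of binding.

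Libraries held 16461277 to 18795575 counts in genes, of which 2.19% to 4.21% in controls and 0.856% to 2.23% in overexpression were mitochondrial. The part of that share in the results was not tested. Some libraries stood apart. Lyz2, the lysozyme gene that macrophages express strongly, had 15672, 38702 and 28352 CPM (counts-per-million, on library sizes scaled by TMM) in controls 1, 2 and 3 and 44.7, 40.8 and 29281 CPM in overexpression 1, 2 and 3. Lyz2 was therefore nearly absent from overexpression 1 and 2 only, while its close paralog Lyz1, with which it can share reads, had 58.5 to 332 CPM over the 6 libraries. No label tells whether the cells of those libraries had the same genotype as the others. The other 8 macrophage markers looked at, among them Csf1r, Cd68 and Spi1, were present in every library, and 3 of them rose, as given below beside the members. On the first principal component overexpression 3 lay nearest the controls, at 23.2 against 89.5 and 74.0 for the other overexpression libraries and -42.3, -66.2 and -78.2 for the controls. The targeted gene itself varied within the labels: Rfx1 had 57.6, 11.0 and 14.8 CPM among the controls and 40.8, 36.4 and 23.2 CPM in overexpression, so the library labelled control 1 held the most. The labels overlapped and Rfx1 did not pass (log2 difference 0.27, 95% interval -1.05 to 1.58, adjusted p = 0.802). Directions below follow the labels. The part of the Lyz2 difference in the results was not tested beyond the values without those libraries given here.

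Of the 10 members, 6 rose in the overexpression libraries, 4 did not pass the test and none fell (edgeR's quasi-likelihood test, adjusted p below 0.05 over all 13454 genes tested). Over all genes tested, 6.9% were higher and 5.97% lower by the same rule. The members that rose were Nlrp3, Casp1, Casp4, Il1a, Il1b and Il1rn, and those that did not pass were Aim2, Pycard, Gsdmd and Il18. At an unadjusted p below 0.05, 7 members were higher and 0 lower, and DESeq2 and limma-voom with quality weights for each library also gave 0 lower. In 7 members every overexpression library lay above every control library, as did 16.3% of all genes tested, and in none did every overexpression library lie below, as in 17.1% of all genes. The median log2 change was 1.32 over the members and -0.01 over all genes. Without control 2 or without overexpression 2, 3 members rose, and of all genes tested 3.26% and 3.32% were then higher. Without both overexpression 1 and 2, an alternative chosen after seeing the data, 1 member rose, beside 1.78% of all genes. In bulk RNA, a change in the number of expressing cells and a change in RNA per cell cannot be told apart.

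**Figure D1:**
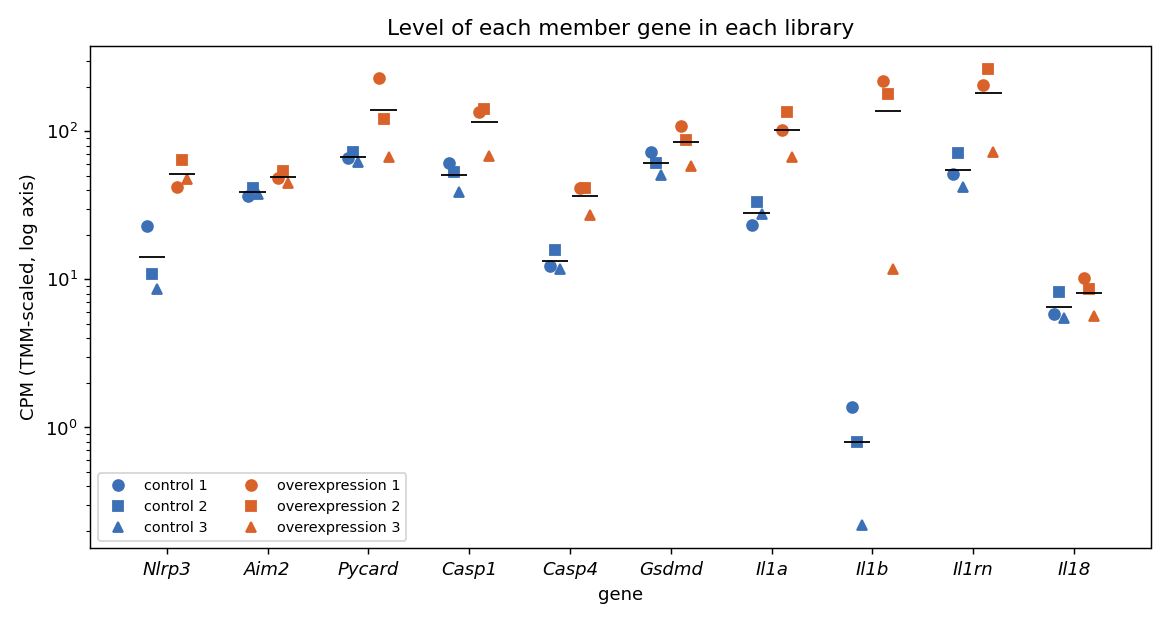
CPM of each member (log axis) in each library, with blue for control, orange for overexpression, marker shape for the replicate number and a black line for the group mean. Il1b spans the widest range, from 0.218 CPM in control 3 to 219.97 CPM in overexpression 1, and overexpression 3 is the lowest overexpression library in every member but Nlrp3.

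Among the sensors, Nlrp3 rose and Aim2 did not pass. Nlrp3 (ENSMUSG00000032691, chr11:59541568-59566956 of mm10, + strand) encodes the sensor that responds to potassium efflux and membrane damage. It had 23.0, 10.9 and 8.56 CPM in controls 1, 2 and 3 and 42.4, 64.4 and 47.4 CPM in overexpression 1, 2 and 3. Control 1 held more than the other controls, and all overexpression libraries lay above all controls. The means were 14.1 ± 7.76 and 51.4 ± 11.6 CPM (SD, n = 3 each), a log2 change of 1.86 ± 0.37 (SE, adjusted p = 0.0103). The call was lost without control 2 (adjusted p = 0.0628) and without overexpression 2 (adjusted p = 0.0556). Aim2 (chr1:173350879-173466040, + strand) encodes a sensor of DNA in the cytosol. It had 36.5, 41.5 and 37.9 CPM among the controls and 48.4, 53.7 and 45.0 CPM in overexpression. These groups did not overlap, but they lay close together, with a log2 difference of 0.34 (95% interval -0.08 to 0.77, adjusted p = 0.273).

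Pycard (chr7:127989708-127993867, - strand), which encodes the adaptor ASC, did not pass, and its level differed among the overexpression libraries. It had 66.0, 72.5 and 62.0 CPM among the controls and 229, 121 and 67.3 CPM in overexpression 1, 2 and 3. Overexpression 1 and 2 lay above the controls, and overexpression 3 lay among them. The log2 difference was 1.06 (95% interval 0.21 to 1.91, unadjusted p = 0.0194, edgeR adjusted p = 0.0986). It passed in 5 of 16 other settings: without overexpression 3 (adjusted p = 0.00399), without both control 1 and overexpression 3 (0.000281), with DESeq2 (0.0323), with limma-voom and quality weights (0.00865) and when genes of low count were kept in (0.00163). A provisional annotation on the other strand, Gm45205, covers 12.8% of its exonic bases and held 0 to 3 counts a library.

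Both inflammatory caspases rose. Casp1 and Casp4 are neighbours on chromosome 9 (5298517 to 5307265 and 5308828 to 5336783, both on the + strand), 1562 bases apart. Casp1, the protease that matures IL-1 beta and IL-18, had 61.1, 52.9 and 38.7 CPM among the controls and 136, 142 and 68.2 CPM in overexpression. The lowest overexpression library, 3, stood just above the highest control. The log2 change of Casp1 was 1.18 ± 0.31 (SE, adjusted p = 0.0329). That call was lost on leaving out control 2 (adjusted p = 0.112), control 3 (0.129), overexpression 1 (0.0869) or overexpression 2 (0.145) and when libraries were scaled by size only (adjusted p = 0.0714), which shifted the median of all genes to -0.20.

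Casp4, the mouse gene also called caspase 11, encodes the caspase that binds bacterial lipopolysaccharide in the cytosol and cuts gasdermin D directly. It had 12.2, 15.8 and 11.8 CPM among the controls and 41.5, 41.4 and 27.3 CPM in overexpression. The groups did not overlap, and the lowest overexpression library, 3, held 1.73-fold the highest control. The means were 13.3 ± 2.16 and 36.7 ± 8.17 CPM (SD, n = 3 each), a log2 change of 1.47 ± 0.25 (SE, adjusted p = 0.0051). The call held in 15 of 16 other settings and was lost only for overexpression 3 alone against the controls (adjusted p = 0.11). Within a library, the log2 ratio of Casp4 to Casp1 counts was -1.92 ± 0.34 in controls and -1.61 ± 0.25 in overexpression (SD, n = 3 each), a difference of 0.32 with p = 0.5 in a 2-sided exact permutation test, where the smallest p that these libraries allow is 0.1. The ratio was -2.32 in control 1 and between -1.78 and -1.32 in the other 5 libraries.

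Gsdmd (chr15:75862327-75867408, + strand), the pore former, did not pass. It had 72.4, 61.2 and 50.8 CPM among the controls and 108, 87.1 and 58.3 CPM in overexpression. As in Pycard, overexpression 1 and 2 lay above the controls and overexpression 3 within their range. The log2 difference was 0.46 (95% interval -0.13 to 1.04, adjusted p = 0.292). It passed with limma-voom and quality weights (adjusted p = 0.0259) and without both control 1 and overexpression 3 (adjusted p = 0.0242).

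**Figure D2:**
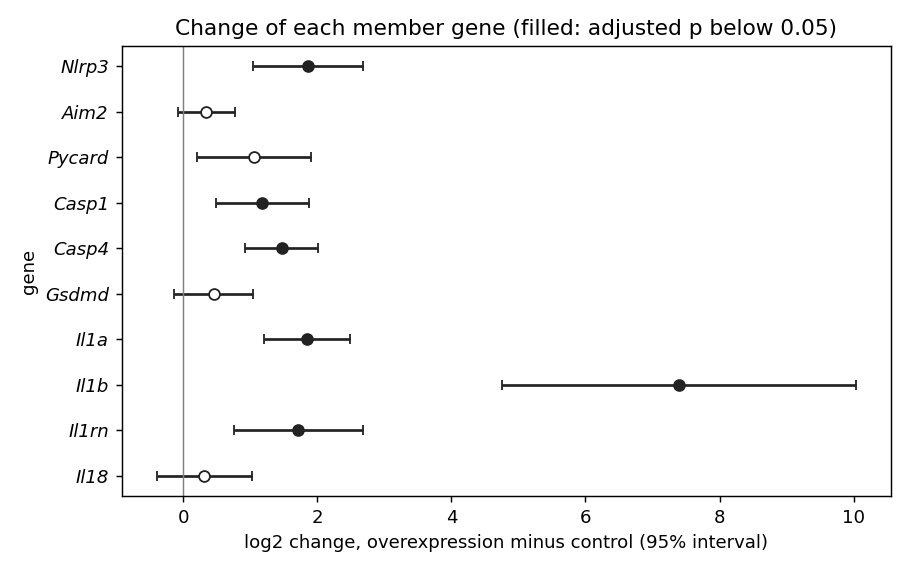
log2 change of each member, overexpression minus control, with its 95% interval from the edgeR fit, filled where the adjusted p is below 0.05. The change of Il1b, 7.39, stands far to the right of the other 9, which lie between 0.31 and 1.86.

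Il1b (ENSMUSG00000027398, chr2:129364570-129371139, - strand), which encodes the precursor of the secreted cytokine IL-1 beta, changed by far the most of the members. It had 29, 15 and 4 counts in controls 1, 2 and 3 and 3215, 3172 and 200 counts in overexpression 1, 2 and 3. Scaled, these were 1.37, 0.799 and 0.218 CPM against 219.97, 179.7 and 11.8 CPM. Every control was near 0, overexpression 1 and 2 were alike, and overexpression 3 lay in between, 8.62-fold above the highest control. The log2 change was 7.39 ± 1.15 (SE, 95% interval 4.76 to 10.03, adjusted p = 0.00533), about 168-fold. The call held in all 16 other settings. When overexpression 3 alone was compared with the controls, whose spread then stands for both labels, the log2 change was 3.87 (adjusted p = 0.036), and it was the only member to pass in that fit. An antisense gene, Il1bos, shares 25 bases (1.31%) of its exons and had 0 counts in all controls and 14, 12 and 2 counts in overexpression. Whether the counting used strand is not given in the sources used here.

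Il1a lies 54.6 kb from Il1b in the same orientation (chr2:129299610-129309972) and encodes IL-1 alpha, which signals through the same receptor, is active without caspase 1 and works as an alarm signal when cells die. It had 23.3, 33.5 and 27.6 CPM among the controls and 102, 136 and 66.8 CPM in overexpression. The groups did not overlap, and even the lowest overexpression library held 1.99-fold the highest control. The log2 change was 1.85 ± 0.29 (SE, adjusted p = 0.00369). It passed in 15 of 16 other settings, and for overexpression 3 alone it was 1.25 (adjusted p = 0.0553). The antisense transcript Gm14023 covers 11.2% of its exonic bases and had 4 to 10 counts in controls and 12 to 39 in overexpression.

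Il1rn (chr2:24336853-24351494, + strand) encodes the IL-1 receptor antagonist, which occupies the IL-1 receptor without signalling. It had 51.3, 71.3 and 42.2 CPM among the controls and 205, 264 and 73.0 CPM in overexpression. Overexpression 3 stood barely above control 2, by 1.02-fold, and the other overexpression libraries well above all controls. The log2 change was 1.72 ± 0.43 (SE, adjusted p = 0.0289). The call was lost when any 1 library other than overexpression 3 was left out (adjusted p = 0.0603 to 0.123).

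The balance of Il1b against its antagonist differed between the labels in every library. The log2 ratio of Il1b to Il1rn counts within a library, which no scaling affects, was -5.20, -6.43 and -7.43 in controls 1, 2 and 3 and 0.10, -0.56 and -2.63 in overexpression 1, 2 and 3. Il1rn counts thus exceeded Il1b counts in all libraries but overexpression 1. Counts take no account of exon length, which is 5535 bases for Il1rn and 1907 for Il1b. Per kilobase of exon, Il1b lay above Il1rn in overexpression 1 (115 against 37.0 CPM) and overexpression 2 (94.2 against 47.7), and below it in the other libraries. The mean log2 ratios of counts differed by 5.33 (-6.35 ± 1.11 against -1.03 ± 1.42, SD, n = 3 each), with p = 0.1 in a 2-sided exact permutation test, the smallest p that 3 against 3 libraries can give.

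Some macrophage markers rose beside the members. Cd14, the co-receptor for bacterial lipopolysaccharide, had 263, 218 and 177 CPM among the controls and 4518, 3810 and 1387 CPM in overexpression (log2 change 3.88 ± 0.46 SE, adjusted p = 0.00106). Adgre1, which encodes F4/80, and Itgam, which encodes CD11b, rose by 1.37 and 0.97 on the log2 scale (adjusted p = 0.0243 and 0.0257), and the other 6 of 9 did not pass. Without Lyz2 the markers summed to 3322 to 4076 CPM in controls and 5524 to 8760 CPM in overexpression. That sum includes Cd14, with 177 to 263 CPM in controls and 1387 to 4518 CPM in overexpression. Of the 6 that did not pass, Spi1 was lower in every overexpression library (151 to 197 against 234 to 296 CPM, edgeR adjusted p = 0.104). The labels overlapped in the others, among them Cd68, at 1893 to 2640 CPM in controls and 1912 to 2714 CPM in overexpression.

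Of the neutrophil markers, in a cell type that also expresses Il1b and Il1rn, a few were higher in overexpression. The summed level of the 10 markers was 19.9 to 23.4 CPM among the controls and 193 to 601 CPM in overexpression, and all 3 that could be tested (S100a8, Mmp8 and Camp) rose. S100a8 and Mmp8 carried this sum, with 17.6 to 21.7 CPM in controls and 192 to 597 CPM in overexpression, and the other 8 markers summed to 0.661 to 2.78 CPM and 1.59 to 4.79 CPM. The defining marker Ly6g had 0 counts in all 6 libraries and Retnlg had 1 count in all. Cxcr2 went the other way, with 2, 19 and 43 counts in controls 1, 2 and 3 and 0 in every overexpression library. It had too few counts to be tested. Mpo had 3, 0 and 0 counts in controls and 0 in overexpression. Camp had 0 counts in all controls and 41, 14 and 10 in overexpression 1, 2 and 3. S100a9 had 0, 2 and 2 counts in controls and 8, 14 and 2 in overexpression. Ngp had 1, 0 and 0 against 14, 10 and 6, and Elane 8, 10 and 6 against 7, 4 and 9. Dendritic cell markers summed to 4.53 to 7.04 CPM in controls and 18.9 to 28.8 CPM in overexpression, with 2 of 3 tested markers risen (Clec9a and Ccr7). Clec9a carried most of the overexpression sum, with 0.958 to 2.36 CPM in controls and 10.6 to 19.6 CPM in overexpression. Zbtb46 had 1.98 to 2.13 CPM in controls and 0.958 to 2.54 CPM in overexpression and did not pass (edgeR adjusted p = 0.684). Xcr1 had 8, 2 and 5 counts against 2, 0 and 3, and Flt3 5, 0 and 0 against 6, 10 and 16. Siglech was at 0 in all libraries. Of 6 B cell, 4 T and NK cell and 4 mast cell markers tested, the smallest adjusted p was that of Ms4a1, at 0.063. The part of the macrophage, neutrophil and dendritic cell markers in the rises of the members was not tested.

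Il18 (chr9:50554827-50581840, + strand), whose product caspase 1 matures beside IL-1 beta, did not pass. It had 5.86, 8.25 and 5.51 CPM among the controls and 10.2, 8.55 and 5.67 CPM in overexpression. The groups overlapped, with overexpression 3 at the low end of the controls. The log2 difference was 0.31 (95% interval -0.40 to 1.03, adjusted p = 0.562), and Il18 passed in none of the 16 other settings. Whether its change differs from those of the other cytokines was not tested.

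Per kilobase of exon, the order of the members differed between the libraries, with Il1b, Il18, Gsdmd and Il1a among those that changed place. Exon length here merges all annotated transcripts of a gene, which lowers the value of genes with long alternative transcripts. In all 3 controls Casp1 was the highest member, at 25.8 to 40.8 CPM per kb, followed by Gsdmd and Pycard, and Il1b was the lowest, at 0.114 to 0.718. In overexpression 1 Il1b ranked the highest, at 115 CPM per kb against 90.8 for Casp1. In overexpression 2 both were alike, at 94.2 for Il1b and 95.1 for Casp1, and in overexpression 3 Il1b was the 9th of 10, at 6.19. Gsdmd ranked 5 in overexpression 1 and 2 against 2 in every control, and Il1a ranked 2 in overexpression 3 against 4. Il18, which ranked 7 in every control, was the lowest member in all 3 overexpression libraries, at 5.50 to 9.89 CPM per kb, a level that the controls also had, at 5.34 to 8.0. Nlrp3 and Casp4 stayed among the lower members throughout, at 2.11 to 15.9 and 3.19 to 11.2 CPM per kb.

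**Figure D3:**
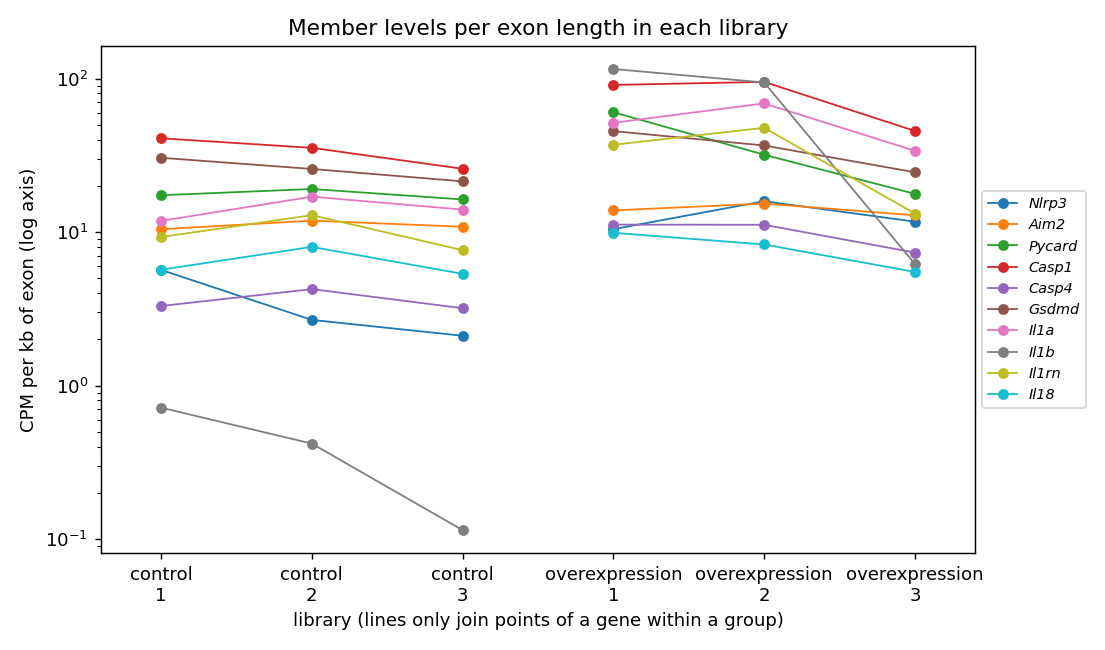
CPM per kb of exon (log axis) for each member in each library; lines join the points of a gene within a group and stand for no order. Il1b is the lowest line in the controls, at 0.114 to 0.718, and among the highest in overexpression 1 and 2, at 115 and 94.2, while Il18 stays between 5.34 and 9.89 in all 6 libraries.

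Overexpression 3 shared some of these rises and not others. On mean log2 CPM (prior count of 2), Nlrp3 lay 1.87 above the control mean in overexpression 3 and 2.01 above it in the mean of overexpression 1 and 2. Il1b lay 3.96 above in overexpression 3 and 8.03 above in the other pair. Casp4 and Il1a were in between as well, at 1.04 against 1.64 and 1.26 against 2.07. For Casp1 and Il1rn the distances were 0.45 against 1.47 and 0.44 against 2.11, and for Pycard, Gsdmd and Il18 they were 0.01, -0.06 and -0.18 against 1.32, 0.67 and 0.53. Differences between libraries of 1 label have no replicate check.

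**Figure D4:**
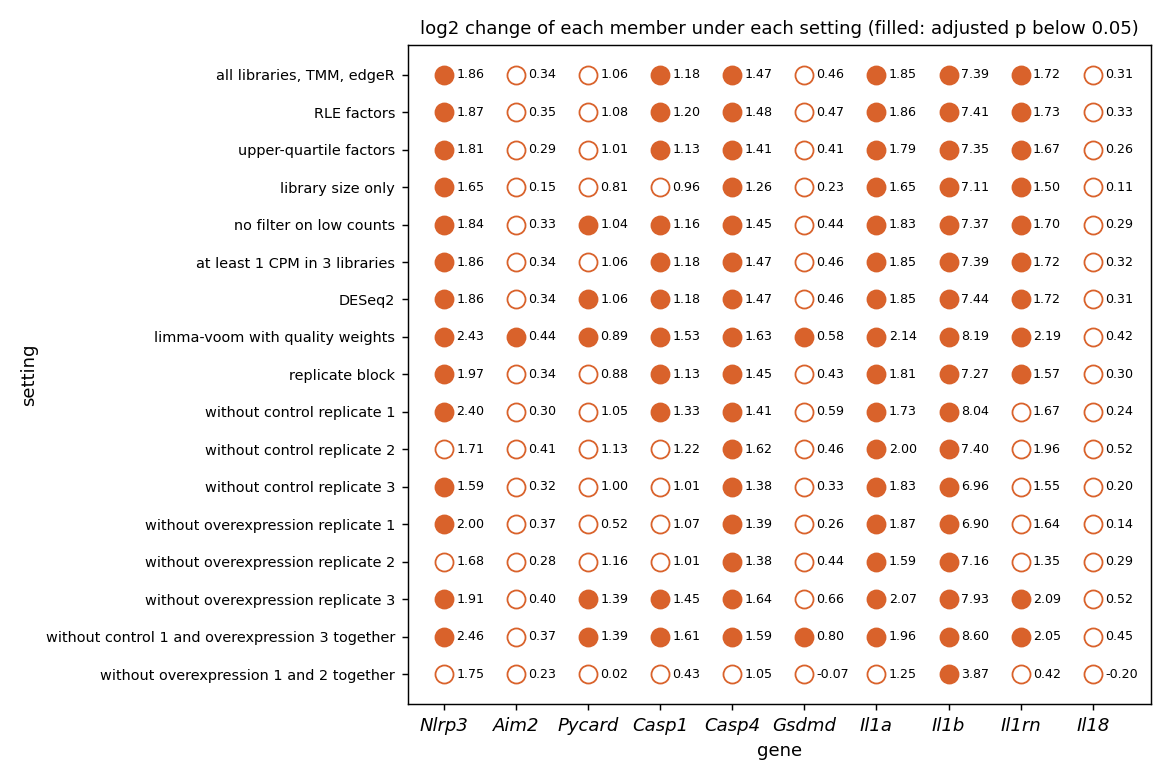
log2 change of each member under each setting, printed beside a circle that is filled where the adjusted p is below 0.05. Il1b is filled in every row, Casp4 and Il1a in all but the last, and Il18 in none.

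Outside the 10 members, 48 further genes of the pathway were read, of which 40 had enough counts to be tested. Of these, 9 rose, 2 fell and 29 did not pass, beside 6.9% of all genes tested higher and 5.97% lower. The same shares stand beside the counts of each list below. The median log2 change of these 40 was 0.03. The number risen was 5 with library size only (4.82% of all genes higher) or without control 3 (3.79%). It was 3 without control 2 (3.26%) and 4 without overexpression 2 (3.32%). With limma-voom and quality weights it was 12 (18.2%), and without both control 1 and overexpression 3 it was 10 (14%). The number fallen was 5 with limma-voom and quality weights (19.8% of all genes lower) and 4 without overexpression 3 (12.8%). Without both control 1 and overexpression 3 it was 5 (14.8%).

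The other ligands of the IL-1 family were mostly silent, apart from Il33. Il33, an alarm cytokine kept in the nucleus, had 1.18, 1.01 and 1.47 CPM among the controls and 11.5, 23.0 and 28.3 CPM in overexpression. All overexpression libraries were far above the controls, and overexpression 3, the lowest for most members, was here the highest. The log2 change was 4.09 ± 0.40 (SE, adjusted p = 0.00035), and for overexpression 3 alone against the controls it was 4.53 (adjusted p = 0.000783). Of the 5 other ligand genes read, all on chromosome 2 beside Il1rn, Il1f8, Il1f5 and Il1f10 had 0 counts in every library, Il1f6 had 2 counts in all, and Il1f9, which encodes IL-36 gamma, had 1.89 to 3.60 CPM in controls and 2.94 to 4.07 CPM in overexpression (adjusted p = 0.531).

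Among 9 receptors and binding proteins, 2 rose, 1 fell and 6 did not pass. Il18bp, a secreted protein that captures IL-18, had 30.0, 10.4 and 4.74 CPM among the controls and 383, 434 and 80.9 CPM in overexpression. The rise of this antagonist, 4.31 ± 0.83 on the log2 scale (SE, adjusted p = 0.0123), stands beside 0.31 for Il18 itself, and the difference between these changes was not tested. The call of Il18bp was lost without control 2 (adjusted p = 0.0542) and without overexpression 1 (adjusted p = 0.0571). Il1rl2, the receptor of IL-36, had 9.21, 8.36 and 9.65 CPM among the controls and 19.4, 25.1 and 41.8 CPM in overexpression (log2 change 1.66 ± 0.30 SE, adjusted p = 0.00681), and was again highest in overexpression 3.

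Il1r1, the signalling receptor of IL-1 alpha and IL-1 beta, fell. It had 44.0, 53.6 and 71.3 CPM in controls 1, 2 and 3 and 5.41, 7.76 and 17.4 CPM in overexpression 1, 2 and 3. The log2 change was -2.46 ± 0.41 (SE, adjusted p = 0.00534), and it held in all other settings but overexpression 3 alone against the controls (adjusted p = 0.0518). Of 7 mesothelial markers tested 5 fell, and the 9 markers read summed to 28.2 to 175 CPM in controls and 2.19 to 8.32 CPM in overexpression. Of 7 fibroblast markers 2 fell, Pdgfra and Lum, and 5 did not pass. The log2 differences of those 5 were -1.60 (Col1a2, edgeR adjusted p = 0.0601), -1.39 (Col1a1, 0.125), -0.78 (Col3a1, 0.392), -0.39 (Pdgfrb, 0.631) and -0.06 (Dcn, 0.945). The fibroblast sums overlapped, at 656 to 1701 CPM in controls and 285 to 808 CPM in overexpression. The fibroblast receptor gene Pdgfra had 79.0, 154 and 249 CPM among the controls and 3.35, 8.89 and 26.7 CPM in overexpression. Lum had 1.61, 5.27 and 5.24 CPM among the controls and 0.479, 0.453 and 0 CPM in overexpression. Within each label, the order of libraries was that of Il1r1 in Pdgfra, Col1a1, Col1a2 and Pdgfrb, but not in Lum, Col3a1 and Dcn. The part of these markers in the fall of Il1r1 was not tested. The decoy receptor gene Il1r2 stayed at 0.520 to 1.53 CPM in all libraries (adjusted p = 0.419).

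Of 14 other sensors and licensing factors tested, 3 rose, 1 fell and 10 did not pass. Naip2, a receptor that hands bacterial secretion-system proteins to the NLRC4 inflammasome, had 77.3, 58.7 and 65.5 CPM among the controls and 115, 130 and 147 CPM in overexpression (log2 change 0.96 ± 0.21 SE, adjusted p = 0.0152). Mefv, the gene of the sensor pyrin, had 10.5, 3.83 and 2.62 CPM among the controls and 18.7, 19.6 and 15.1 CPM in overexpression (1.65 ± 0.46 SE, adjusted p = 0.0442), and Txnip, which encodes a thioredoxin-binding protein, also rose (0.84 ± 0.24 SE, adjusted p = 0.0471). The calls of Naip2, Mefv and Txnip were lost without control 2 (adjusted p = 0.078, 0.168 and 0.0504), control 3 (0.078, 0.111 and 0.194) or overexpression 2 (0.067, 0.146 and 0.182), those of Mefv and Txnip also without overexpression 1 (0.114 and 0.0696), and Txnip also without control 1 (0.133). When libraries were scaled by size only, none of the 3 passed (adjusted p = 0.0778, 0.101 and 0.0924), and Txnip did not pass with upper-quartile factors either (adjusted p = 0.063).

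Nlrp1a, a sensor of the NLRP1 group, fell and had 65 counts over the controls and 1 over overexpression. On these pooled counts it had 54.9-fold fewer CPM (counting interval at 95% 9.51 to 2200). In the edgeR fit, a separate estimate, Nlrp1a changed by -5.35 ± 0.93 on the log2 scale, 40.9-fold lower (SE, adjusted p = 0.00607). Its relative Nlrp1b had 1.33 to 3.97 CPM in controls and 0.0684 to 1.12 CPM in overexpression and did not pass (adjusted p = 0.110). Reads can be shared among the Nlrp1 copies and among the Naip copies. Nlrc4, the platform that the NAIP receptors feed, had 7.63 to 11.5 CPM in controls and 11.7 to 15.2 CPM in overexpression (adjusted p = 0.332), and Nlrp6 and Nlrp12 had 0 counts in every library.

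The 5 other caspases and pore formers tested did not pass. Ninj1, whose product ruptures the membrane after gasdermin pores have formed, had 718 to 1014 CPM in controls and 535 to 1278 CPM in overexpression (adjusted p = 0.875). Of 10 receptor-proximal signalling genes, 3 rose and 7 did not pass. Traf6, the ubiquitin ligase below the IL-1 receptor, had 42.4, 32.7 and 33.6 CPM among the controls and 76.2, 109 and 79.9 CPM in overexpression (1.28 ± 0.23 SE, adjusted p = 0.00634). Irak3, an inhibitory member of the IRAK kinases, had 25.9, 22.6 and 22.6 CPM among the controls and 40.2, 61.7 and 65.2 CPM in overexpression (1.23 ± 0.23 SE, adjusted p = 0.00889; 0.053 without control 2 and 0.0531 without overexpression 2). Irak2 rose by 0.88 ± 0.19 (SE, adjusted p = 0.0163), a call lost on leaving out control 1 (adjusted p = 0.0517), control 2 (0.0773), control 3 (0.0699) or overexpression 2 (0.0882) and with library size only (adjusted p = 0.0648). The adaptor gene Myd88 had 37.1 to 48.9 CPM in controls and 45.1 to 48.8 CPM in overexpression (adjusted p = 0.782).

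**Figure D5:**
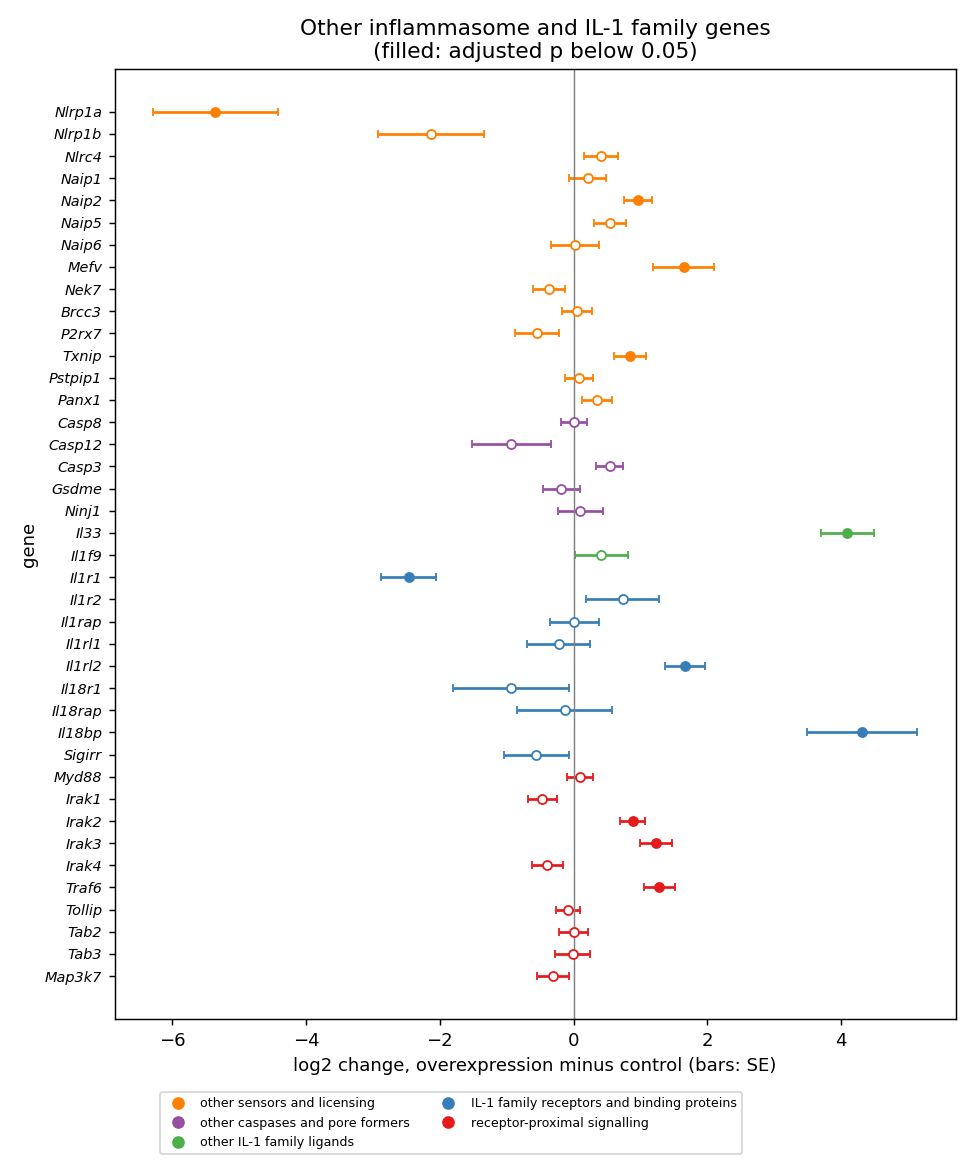
log2 change (overexpression minus control, bars are SE) of the 40 tested pathway genes outside the 10 members, coloured by list and filled where the adjusted p is below 0.05. Il33 at 4.09 and Il18bp at 4.31 lie farthest to the right and Nlrp1a at -5.35 farthest to the left, while the 10 receptor-proximal signalling genes lie between -0.47 and 1.28.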

How the data were processed

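RNA was turned into libraries with a kit that keeps strand, per the labels' protocols. For each library the authors deposited 1 column of raw counts, with featureCounts (1.5.0-p3), DESeq2 (1.20.0) and build mm10 listed in the submitters' processing notes. Aligner, annotation release and strand setting: not given in the sources used here. Of 54532 identifiers, 54409 matched GENCODE mouse release 21 on the same build.

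These counts went into edgeR 4.0.16 (R 4.3.3): TMM scaling, the default filter on low counts (13454 genes kept), a robust quasi-likelihood fit on group alone, and Benjamini-Hochberg adjustment over all genes tested at 0.05. SEs are the log2 change divided by the square root of F, and 95% intervals use the fit's degrees of freedom. Within-library ratios add 0.5 to each count. Every pair of libraries of 1 label differed beyond sampling noise (smallest chi-square over its degrees of freedom 40.9). Intervals on counts cover counting error only.

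The members, lists and tests were chosen with earlier results of these data known. Named were all 10 members, up to 3 risen and 3 fallen genes of each other list among those that passed, Rfx1, genes that overlap a member, list genes with almost no counts, and cell markers. Other genes, chosen after their values were seen, are Lyz1, Nlrp1b, Nlrc4, Ninj1, Il1f9, Il1r2 and Myd88. Alternatives were other scalings and filters, DESeq2 1.42.0, limma-voom with quality weights for each library (limma 3.58.1), the replicate number as a block and leaving out libraries. A gene of the lists is not reported here and is not in their counts.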

Additional observations from a re-analysis of the deposited data

How the results depend on the processing

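The number of members risen was 6, beside 6.9% of all genes called higher, and stayed between 5 and 9 with the other scalings, filters, tests and the replicate block, beside 4.82% (library size only) to 18.2% (limma-voom with quality weights) of all genes. Leaving out 1 library gave 3 to 7, beside 3.26% to 11.8% of all genes, leaving out both control 1 and overexpression 3 gave 8, beside 14%, and leaving out both overexpression 1 and 2, chosen after seeing the data, gave 1, beside 1.78%. No member was called lower in any setting. Without both overexpression 1 and 2, the log2 differences of Gsdmd and Il18, which pass in neither fit, turned to -0.071 and -0.20. Of 160 values for single members under these settings, 133 stayed on their side of the threshold with the same sign, 17 lost a call, 8 gained one and 2, those just given, changed sign. For the 11 other pathway genes called, 33 of 175 values lost the call and none changed sign. Their number risen, 9, was 5 with library size only, 12 with limma-voom and quality weights, 3 to 9 when 1 library was left out, 10 without both control 1 and overexpression 3 and 3 without both overexpression 1 and 2. Their number fallen, 2, was 1 with at least 1 CPM required in 3 libraries, where Nlrp1a was not tested, 5 with limma-voom and quality weights, 2 to 4 when 1 library was left out, 5 without both control 1 and overexpression 3 and 0 without both overexpression 1 and 2. The cause was not tested. The difference in the log2 ratio of Casp4 to Casp1 turned to -0.021 without both control 1 and overexpression 3, and was 0.12 to 0.43 when 1 library was left out; that of Il1b to Il1rn ranged from 4.76 to 6.70 over its alternatives.

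The replicate numbers are not shown to pair the libraries. Deviations from the group means of same-numbered libraries correlated at 0.09, 0.01 and 0.33, and not every library correlated best with its own number. With the number as a block, 6 members rose, 9 other pathway genes rose and 2 fell, and the exact sign-flip p was 0.25 for Il1b to Il1rn and 0.5 for Casp4 to Casp1.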
